A study of Homo sapiens with 33 samples.

Results

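Annexins and galectins are the 9 genes ANXA1, ANXA2, ANXA4, ANXA5, ANXA6, ANXA7, ANXA11, LGALS1 and LGALS3, taken by gene symbol from the platform annotation of Affymetrix HG-U133A arrays. They were read by 14 probe sets of 22215 that are not controls, and they are 9 of 11963 genes named there. Their RNA was measured in the human lines TS (subcloned from Sup-M2) and Su-DHL1. Both come from ALCL, the anaplastic large cell type of T-cell lymphoma, and are positive for ALK, the anaplastic lymphoma kinase that a gene fusion activates there. The 33 arrays formed 11 groups of 3. In all 7 hairpin groups the cells carried the lentiviral vectors pLV-DsRed-tTRKRAB and pLVTH-GFP-shRNA and expressed a short hairpin RNA (shRNA) once doxycycline (1 microg/ml) was added. They had been sorted for GFP and DsRed after induction, and cells with GFP in its absence were then removed. The 84 h groups, all TS cells, were induced A5 (the ALK hairpin), induced A5M (its mutated control) and uninduced A5. The 72 h groups were induced and uninduced A5 in each of the lines. A5M was measured only at 84 h and only induced, so effects of doxycycline and of the A5 hairpin cannot be told apart at 72 h. The other 4 groups were TS cells after 6 h with A2 or A3, with A1, each at 300 nM, or with none of these compounds (U). The compounds are pyrrolocarbazole derivatives known here by code only. In the per-sample descriptions A1 counts among the ALK inhibitors and U as untreated, whereas the series text has A1 as mock and names a diluent control. The annexin and galectin genes tested are therefore compared with both, and related genes with A1 only. Nothing in the labels tells whether replicates were cultured separately, and the p-values therefore reflect only how these samples scatter, which may be technical.

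Annexins are cytosolic proteins that bind negatively charged phospholipids in membranes when calcium rises, and they act in membrane repair, vesicle traffic and the organization of the cell cortex. Galectins are lectins that bind beta-galactosides on glycoproteins, many of them after leaving the cell by a route that bypasses the secretory pathway. Galectin-1 is known to bind glycoproteins on T cells and to promote T-cell death, and annexin A5 is known to bind phosphatidylserine exposed on dying cells. In lymphoma pathology annexin A1 marks hairy cell leukemia, and galectin-1 is a stain of Hodgkin lymphoma and of ALCL.

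Values are the deposited MAS5 signals (linear, 1 per probe set), and levels of different probe sets are not compared with each other. Differences are of mean log2(signal + 11) from limma, with its standard error after the ± sign, and they understate the change of dim genes. A gene was called at a Benjamini-Hochberg adjusted p below 0.05 over all genes tested. Shares of all genes are at this adjusted level. Counts at an unadjusted p below 0.05 are given for the annexin and galectin genes alone, and the share of all genes at that level was not counted. ALK, the target of A5, had 248.0 ± 44.2 signal units in TS cells with A5 at 84 h with doxycycline, 1686 ± 46.5 with A5M and 2039 ± 97.2 without doxycycline (SD, n = 3 each), and at 72 h it fell too, with -2.44 ± 0.11 for TS (limma adjusted p = 3.31e-14) and -2.20 ± 0.11 for Su-DHL1 (limma adjusted p = 6.06e-13). The 8 ALCL markers reached the 40th percentile of the signals of their array, which lay between 33.3 and 44.1, on all 33 arrays. None of the 5 B-cell markers on the array did so, and their summed signal was 87.5 to 201.2. Pearson correlations of replicates of a group lay between 0.969 and 0.985.

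Probe sets of ANXA1, ANXA2, ANXA5, ANXA7, ANXA11 and LGALS1 reached the 40th percentile on all 33 arrays, and that of LGALS3 did on 28. The ANXA4 probe set used did so on 8 arrays, 6 of them Su-DHL1 arrays, and the ANXA6 probe set on 4. ANXA6 therefore entered the hairpin fit only through induced A5 arrays of TS cells, and ANXA4 through the Su-DHL1 arrays, where it was high. Neither was tested in the inhibitor fit, so counts are given over the 7 other genes, and ANXA4 and ANXA6 are described on their own. The plot of signals by group shows LGALS1 and ANXA5 highest in the 3 groups with induced A5. ANXA2 was highest in TS cells with induced A5, and in induced Su-DHL1 cells its mean lay below those with A3 and A2.

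**Figure D1:**
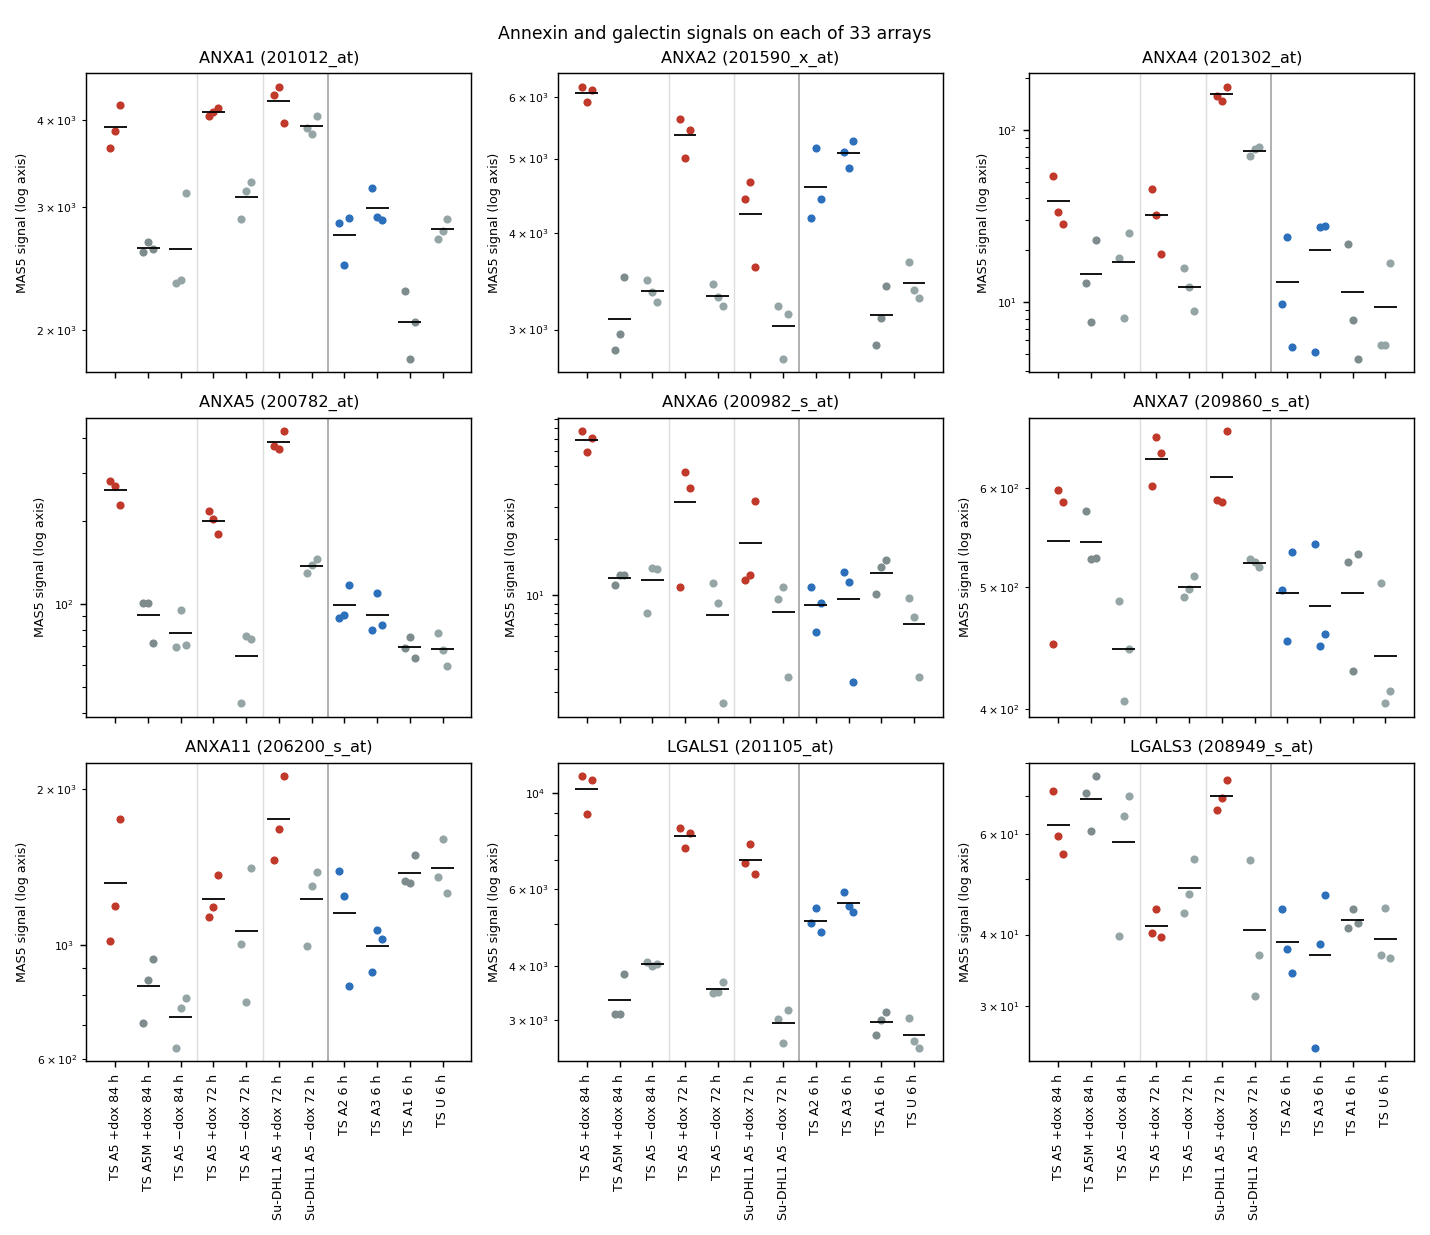
MAS5 signal (log axis, its own range in each panel) of the probe set used for each of the 9 genes, by group. Points are the 3 arrays of a group and bars their mean; red marks A5 with doxycycline, blue A2 and A3, grey the groups they are set against. LGALS1 lay between 6492 and 10913 on the 9 arrays of A5 with doxycycline, above every other array.

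With A5 induced, 6 of the 7 genes were higher in TS cells at 84 h, all but LGALS3, and none was lower. Of all 9101 genes tested, 40.6% were called in that comparison and 21.8% were called higher. At 72 h in TS cells 5 of the 7 were higher and none lower, against 34.2% of all genes called and 18.9% called higher. In Su-DHL1 cells at 72 h it was 4 higher (ANXA2, ANXA5, LGALS1 and LGALS3) and none lower, against 24.6% called and 13.9% higher. Against A5M, which also received doxycycline, 5 were higher and none lower, against 43.3% called and 23.3% higher. The comparisons of A5 in TS cells at 84 h with A5M and with uninduced cells share the A5 arrays. For these 7 genes the median difference was 0.82 in TS cells at 84 h, 0.40 at 72 h, 0.51 in Su-DHL1 cells and 0.63 against A5M, beside 0.06, 0.07, 0.08 and 0.06 over all genes.

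LGALS1 encodes galectin-1, a small galectin that acts as a dimer. In TS cells with A5 at 84 h it had 10912.8, 8930.6 and 10700.7 signal units with doxycycline, against 4083.7, 3986.5 and 4031.7 without it. With A5M it had 3092.3, 3090.2 and 3831.0 units. The A5 arrays with doxycycline lay above all 6 others, and the difference was 1.33 ± 0.10 (2.51-fold, limma adjusted p = 6.92e-11) against uninduced cells and 1.61 ± 0.10 (3.05-fold, limma adjusted p = 2.06e-12) against A5M. At 72 h TS cells had 8296.8, 7472.0 and 8074.5 units with doxycycline, against 3465.3, 3487.5 and 3674.9 without it (1.16 ± 0.10, limma adjusted p = 1.25e-09). Su-DHL1 cells had 6895.3, 7606.7 and 6492.4 units with doxycycline, against 3017.5, 2653.1 and 3163.5 without it (1.25 ± 0.10, limma adjusted p = 9.85e-10). The groups did not overlap in either line, and all 16 alternatives to each of these 4 comparisons kept the call.

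ANXA5 encodes annexin A5, the phosphatidylserine-binding annexin used as a label of dying cells. It had 279.7, 267.4 and 229.3 units in TS cells with A5 and doxycycline at 84 h, against 101.1, 100.6 and 72.0 with A5M and 69.5, 94.9 and 70.8 without doxycycline. At 72 h the values were 216.9, 202.7 and 179.1 with doxycycline, against 43.5, 76.5 and 74.2 without it. In Su-DHL1 cells they were 375.9, 366.5 and 423.5 with doxycycline, against 129.0, 138.8 and 145.0 without it. No induced A5 array overlapped with the arrays it was set against. The rise was 1.60 ± 0.17 in TS cells at 84 h, 1.503 ± 0.17 at 72 h and 1.43 ± 0.17 in Su-DHL1 cells, with a highest limma adjusted p of 6.91e-07 among the 3. Against A5M it was 1.41 ± 0.17 (2.66-fold, limma adjusted p = 2.04e-07).

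ANXA2 encodes annexin A2, which binds plasminogen and its activator at the cell surface as a complex with S100A10. It had 6194.4, 5916.0 and 6142.8 units in TS cells with A5 and doxycycline at 84 h, against 2818.0, 2960.0 and 3510.4 with A5M and 3473.9, 3359.5 and 3261.9 without doxycycline. At 72 h it had 5629.3, 5000.4 and 5447.3 units with doxycycline, against 3438.4, 3309.3 and 3213.9 without it. In Su-DHL1 cells it had 4426.0, 4663.5 and 3620.4 units with doxycycline, against 3214.3, 2750.7 and 3141.9 without it. ANXA2 was higher on every induced A5 array, with 0.85 ± 0.10 in TS cells at 84 h, 0.69 ± 0.10 at 72 h and 0.47 ± 0.10 for Su-DHL1 (highest limma adjusted p among the 3 = 0.000616). Against A5M the difference was 0.98 ± 0.10 (1.97-fold, limma adjusted p = 9.01e-09).

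The other ANXA2 probe sets, fitted after seeing the data, gave 0.86 ± 0.11 and 0.91 ± 0.11 in TS cells at 84 h, 0.55 ± 0.11 and 0.67 ± 0.11 at 72 h, and 0.54 ± 0.11 and 0.46 ± 0.11 in Su-DHL1 cells, all called by limma. All 3 ANXA2 probe sets are of a type that can read related transcripts, and the retrocopy ANXA2P2 is close in sequence, so the ANXA2 signal is uncertain as to its source. The probe set named ANXA2P2 had 1260.5, 1017.2 and 1027.5 units with A5 and doxycycline at 84 h, against 553.2, 586.4 and 642.1 with A5M and 630.4, 491.2 and 649.8 without doxycycline.

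**Figure D2:**
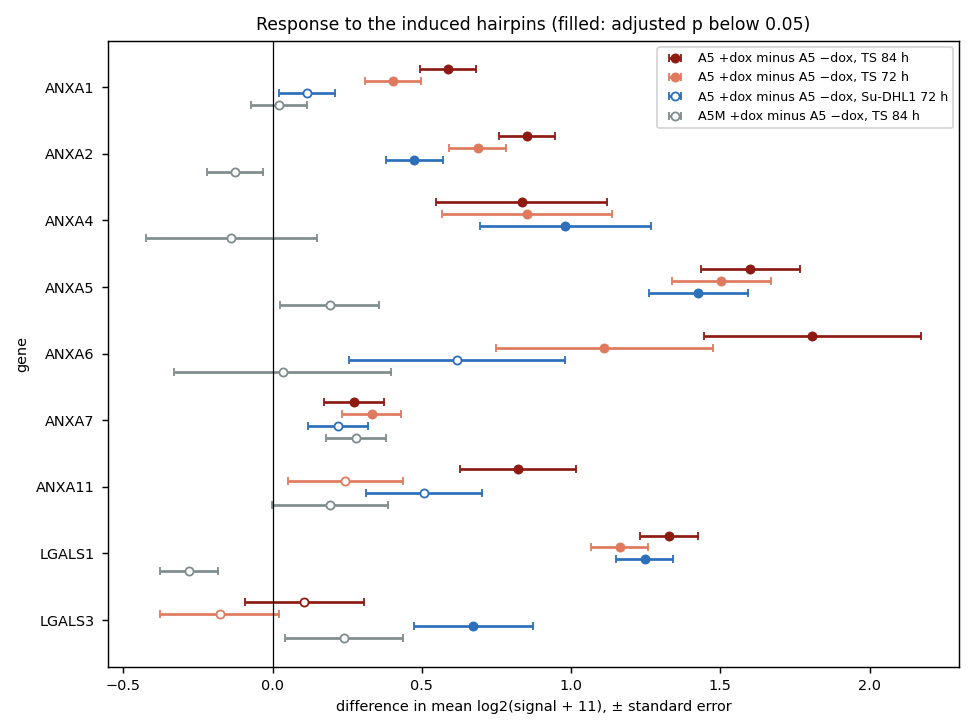
Difference in mean log2(signal + 11) (horizontal, ± standard error) of each of the 9 genes for A5 with against without doxycycline in 3 settings and for A5M with doxycycline against A5 without it. Filled points have a limma adjusted p below 0.05, which for ANXA6 is not read as a test. ANXA5 and LGALS1 lie between 1.16 and 1.60 in all 3 A5 settings, and no A5M point is filled.

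ANXA1 encodes annexin A1, a glucocorticoid-induced protein that signals through formyl peptide receptors. It had 3643.2, 3853.8 and 4206.0 units in TS cells with A5 and doxycycline at 84 h, against 2587.5, 2679.0 and 2613.8 with A5M and 2340.0, 2357.4 and 3144.4 without doxycycline. At 72 h TS cells had 4047.3, 4107.1 and 4155.5 units with doxycycline, against 2887.6, 3168.9 and 3262.5 without it. In TS cells the induced arrays lay above all others, with 0.59 ± 0.09 at 84 h (limma adjusted p = 1.82e-05), 0.40 ± 0.09 at 72 h (limma adjusted p = 0.00157) and 0.57 ± 0.09 against A5M (limma adjusted p = 2.43e-05). In Su-DHL1 cells the groups overlapped, with 4339.4, 4458.2 and 3963.3 units with doxycycline, against 3892.1, 3822.4 and 4051.0 without it (0.12 ± 0.09, 95% interval -0.08 to 0.31, limma adjusted p = 0.431). The difference between the lines did not pass (-0.29 ± 0.13, limma adjusted p = 0.337).

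ANXA6 encodes annexin A6, the largest annexin, with duplicated core repeats. It had 76.8, 59.7 and 71.1 units in TS cells with A5 and doxycycline at 84 h, against 11.3, 12.9 and 12.9 with A5M and 8.0, 14.1 and 13.9 without doxycycline. Only these 3 arrays and 1 of the induced 72 h arrays reached the 40th percentile, so the values it was set against lie in the dim range where signals have little order. On the log2(signal + 11) scale the difference was 1.81 ± 0.36 against uninduced cells and 1.77 ± 0.36 against A5M, given with no p because the gene was tested only where these arrays were high. At 72 h the TS values of 11, 46.6 and 38.1 with doxycycline overlapped with 11.6, 9.1 and 2.6 without it (1.11 ± 0.36). In Su-DHL1 cells ANXA6 had 12.1, 12.9 and 32.3 units with doxycycline, against 9.5, 11.1 and 3.6 without it, all below the 40th percentile of their arrays (0.62 ± 0.36).

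ANXA4 encodes annexin A4, which is known from epithelia as a membrane-ordering annexin. The probe set used had 157.1, 147.2 and 177.8 units in Su-DHL1 cells with A5 and doxycycline, against 70.2, 77.8 and 79.5 without it (0.98 ± 0.29, limma adjusted p = 0.0131). In TS cells at 84 h it had 54.3, 33.3 and 28.4 units with doxycycline, against 12.9, 7.7 and 22.8 with A5M and 18, 8.1 and 25.3 without doxycycline. At 72 h it had 45.2, 31.9 and 19.1 units with doxycycline, against 15.7, 12.2 and 8.9 without it. Only 1 induced TS array at each time reached its 40th percentile, and no uninduced or A5M array of these TS cells did. The TS differences may therefore rest on dim signals. The TS groups did not overlap and were called (0.83 ± 0.29 at 84 h, limma adjusted p = 0.0217, and 0.85 ± 0.29 at 72 h, limma adjusted p = 0.0226). Against A5M, whose arrays it also cleared, the difference was 0.97 ± 0.29 (limma adjusted p = 0.00752), a call that ended without the induced A5 replicate 1 (0.76, limma adjusted p = 0.0577) or the A5M replicate 2 (0.77, limma adjusted p = 0.0505). The other ANXA4 probe set had 222.7, 199.1 and 202.6 units in Su-DHL1 cells with doxycycline, against 93.2, 70.1 and 69.6 without it, a called difference of 1.31 ± 0.27 (limma adjusted p = 0.000874). On all 27 TS arrays it lay between 1.4 and 7.2 units, and it was not called in TS cells (0.16 ± 0.27 at 84 h, 0.05 ± 0.27 at 72 h). The TS calls also ended at 84 h without the induced replicate 1 (0.62, limma adjusted p = 0.129) or the uninduced replicate 2 (0.58, limma adjusted p = 0.132), and at 72 h without the induced replicate 1 or 2 or the uninduced replicate 2 or 3 (0.64 to 0.86, limma adjusted p from 0.0508 to 0.138), while the Su-DHL1 call on the probe set used ended without the induced replicate 3 (0.91, limma adjusted p = 0.0540).

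ANXA11 encodes annexin A11, a phospholipid- and RNA-granule-binding annexin that also binds ALG-2 (PDCD6) and S100A6. It had 1018.0, 1190.0 and 1750.3 units in TS cells with A5 and doxycycline at 84 h, against 706.3, 854.0 and 936.4 with A5M and 631.0, 754.7 and 789.3 without doxycycline. The difference was 0.82 ± 0.19 against uninduced cells (limma adjusted p = 0.00130), and 0.63 ± 0.19 against A5M (limma adjusted p = 0.0103). At 72 h TS values overlapped, with 1133.7, 1181.7 and 1364.4 units with doxycycline, against 1003.3, 773.4 and 1409.0 without it (0.24 ± 0.19, limma adjusted p = 0.375). In Su-DHL1 cells 1455.6, 1675.6 and 2120.3 units with doxycycline stood above 993.9, 1299.4 and 1384.5 without it, just short of a call (0.51 ± 0.19, limma adjusted p = 0.0595, and 0.00464 to 0.261 over 17 alternatives). The other ANXA11 probe set gave 0.46 ± 0.17 for TS at 84 h and 0.51 ± 0.17 for Su-DHL1, both called by limma, and 0.24 ± 0.17 against A5M, which was not. The call against A5M also ended without the induced A5 replicate 3 (0.41, limma adjusted p = 0.104) or the A5M replicate 1 (0.52, limma adjusted p = 0.0580).

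ANXA7 encodes annexin A7, or synexin, which is known from its role in granule fusion. It had 450.8, 597.7 and 584.9 units in TS cells with A5 and doxycycline at 84 h, against 575.3, 526.7 and 527.7 with A5M and 487.4, 405.6 and 446.1 without doxycycline. At 72 h it had 601.8, 658.0 and 639.0 units with doxycycline, against 491.1, 498.7 and 510.8 without it. The differences from uninduced cells were small, 0.27 ± 0.10 at 84 h (limma adjusted p = 0.0315) and 0.33 ± 0.10 at 72 h (limma adjusted p = 0.0115). Against A5M there was none of that size (-0.01 ± 0.10, 95% interval -0.21 to 0.20), and A5M itself stood 0.28 ± 0.10 above uninduced A5 (limma adjusted p = 0.1003). In Su-DHL1 cells ANXA7 did not pass (0.22 ± 0.10, limma adjusted p = 0.119). The call at 84 h ended without the induced replicate 2 or 3 or the uninduced replicate 2 or 3 (0.20 to 0.27, limma adjusted p from 0.0598 to 0.162), and it was not made on the other ANXA7 probe set (0.23 ± 0.12, limma adjusted p = 0.156).

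LGALS3 encodes galectin-3, the chimera-type galectin with a collagen-like tail, which forms multimers on binding its ligands. In Su-DHL1 cells it had 66.1, 69.5 and 74.7 units with A5 and doxycycline, against 54.0, 31.2 and 36.9 without it, and it was called (0.67 ± 0.20, limma adjusted p = 0.0147). In TS cells it had 71.5, 59.7 and 55.5 units with doxycycline at 84 h, against 70.8, 60.8 and 75.9 with A5M and 39.7, 64.5 and 70.1 without doxycycline. At 72 h it had 40.2, 44.3 and 39.6 units with doxycycline, against 43.7, 47.1 and 54.2 without it. The TS groups overlapped, and neither difference passed (0.11 ± 0.20, limma adjusted p = 0.719, and -0.18 ± 0.20, limma adjusted p = 0.553). The response in Su-DHL1 cells exceeded that in TS cells at 72 h by 0.85 ± 0.28, which did not pass after adjustment (95% interval 0.27 to 1.43, limma adjusted p = 0.116). The Su-DHL1 call ended without the induced replicate 3 (0.63, limma adjusted p = 0.0511) or the uninduced replicate 2 (0.54, limma adjusted p = 0.0889) or 3 (0.63, limma adjusted p = 0.0519), and with quantile normalization (0.51, limma adjusted p = 0.0520).

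**Figure D3:**
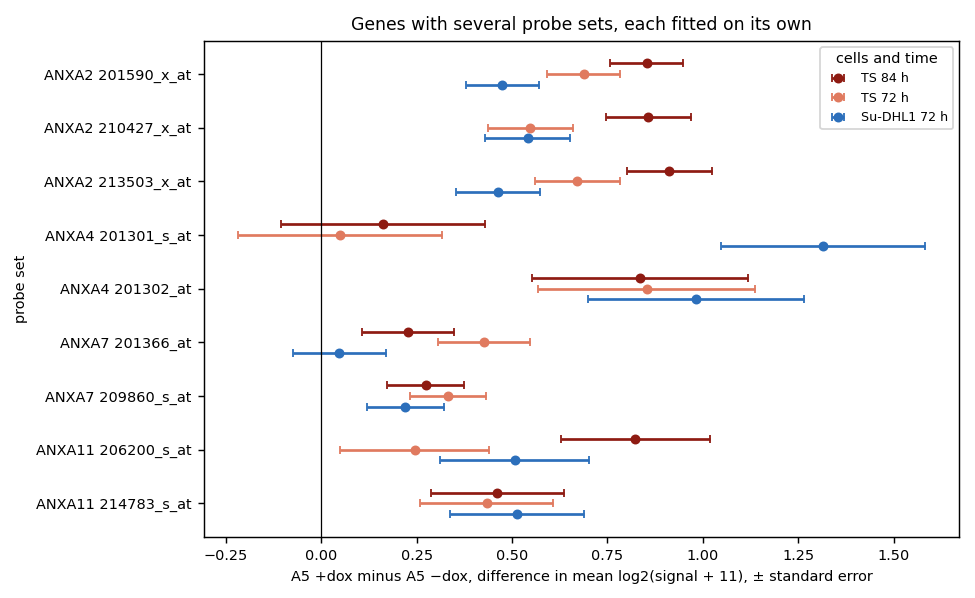
Difference in mean log2(signal + 11) (horizontal, ± standard error) for A5 with against without doxycycline, fitted on each probe set of the 4 genes that have several. The 3 ANXA2 probe sets lie between 0.46 and 0.91 in all settings, whereas the upper ANXA4 probe set lies at 0.05 and 0.16 in TS cells and at 1.31 in Su-DHL1 cells.

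The A5M cells with doxycycline differ from uninduced A5 cells in the hairpin carried and in doxycycline together. With no uninduced A5M group, effects of the hairpin and of doxycycline cannot be told apart here. With A5M and doxycycline against uninduced A5, none of the 9 genes was called by limma, against 6.99% of all genes. ANXA7 and LGALS1 had an unadjusted p below 0.05 (2 of 9), a level at which the share of all genes was not counted. LGALS1 was lower there, by -0.28 ± 0.10 (limma adjusted p = 0.0839), and all 3 A5M arrays lay below the uninduced ones. Without A5M replicate 3 that fall was called (-0.38, limma adjusted p = 0.0173).

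Further tests asked whether the response to A5 differed between lines or times. For the difference between Su-DHL1 and TS cells at 72 h, limma called none of the 9 genes, against 2.89% of all genes, and ANXA1 and LGALS3 had an unadjusted p below 0.05 (2 of 9). For the difference between 84 h and 72 h in TS cells it called none, against 1.27% of all genes, and ANXA11 alone had an unadjusted p below 0.05 (1 of 9). For neither difference was the share of all genes at the unadjusted level counted. For LGALS1 the interval of the difference between lines was -0.20 to 0.37 and that between times -0.12 to 0.45. For ANXA5 they were -0.56 to 0.41 and -0.39 to 0.58.

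Uninduced Su-DHL1 cells carried more ANXA5 and ANXA1 transcript than uninduced TS cells at 72 h, and less LGALS1 (2 of the 7 genes higher and 1 lower). Of all genes 21.2% were called, 10.8% higher and 10.4% lower. ANXA4 reached the 40th percentile on all 3 uninduced Su-DHL1 arrays and on none of the 3 uninduced TS arrays, at the values given above, and no fold is given against the dim TS arrays. ANXA5 was 1.00 ± 0.17 higher (2.004-fold, limma adjusted p = 8.69e-05), and ANXA1 0.34 ± 0.09 higher (1.26-fold, limma adjusted p = 0.0109). LGALS1 was lower by -0.27 ± 0.10 (limma adjusted p = 0.0482). The LGALS1 call ended without any of 5 of the 6 arrays compared, all but Su-DHL1 replicate 3 (-0.29 to -0.20, limma adjusted p from 0.0758 to 0.231), and the ANXA1 call ended without TS replicate 1 (0.29, limma adjusted p = 0.0678).

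A sign of RNA quality and some markers of other cell types moved with A5 in TS cells. The ACTB 3'/5' signal ratio was 1.27 ± 0.02 with A5 and doxycycline at 84 h, against 1.52 ± 0.08 with A5M and 1.54 ± 0.05 without doxycycline, and 1.32 ± 0.05 at 72 h with doxycycline, against 1.59 ± 0.11 without it (SD, n = 3 each). In Su-DHL1 cells it was 1.36 ± 0.08 with doxycycline and 1.39 ± 0.03 without it. With this ratio as a covariate ANXA1, ANXA2, ANXA5, ANXA11 and LGALS1 kept their call in TS cells at 84 h, while ANXA2, ANXA5 and LGALS1 kept it at 72 h. Of the calls that ended, ANXA7 gave 0.23 at 84 h and 0.29 at 72 h, and ANXA1 0.37 at 72 h (limma adjusted p = 0.144). The difference of ANXA4 became 0.38 at 84 h and 0.40 at 72 h, and that of ANXA6 became 1.09 at 84 h and 0.40 at 72 h. Of 8 myeloid markers 5 were tested, and 3 of them, CSF1R, S100A8 and S100A9, were higher with A5 in each TS comparison. CD14 and LYZ were below the 40th percentile on all 33 arrays. The summed signal of the 7 on the array was 9619.5 to 12762.8 with A5 and doxycycline at 84 h, against 2486.2 to 2632.2 with A5M and 1875.5 to 2132.9 without doxycycline. In Su-DHL1 cells the sum was 1036.5 to 1219.1 with doxycycline and 1016.9 to 1031.1 without it, and CSF1R was called there as well (1.35 ± 0.15). Of 8 epithelial and stromal markers 5 were tested, and KRT18 and COL1A2 were higher in TS cells at 84 h (1.23 ± 0.30 and 0.96 ± 0.37) and against A5M (0.98 ± 0.30 and 0.93 ± 0.37). The summed signal of the 8 was 333.0 to 377.5 with A5 and doxycycline at 84 h, against 229.1 to 330.8 with A5M and 268.6 to 298.8 without doxycycline, and EPCAM, KRT19 and PDGFRB were below the 40th percentile on all arrays. The summed signal of the 8 ALCL markers, ALK among them, was 8974.4 to 9974.0 with A5 and doxycycline at 84 h. It was 13003.7 to 14788.0 with A5M and 13421.3 to 13927.6 without doxycycline. In Su-DHL1 cells the ALCL sum was 14604.8 to 16032.9 with doxycycline and 19081.9 to 20794.5 without it. The T-cell sum in TS cells at 84 h was 1547.2 to 1809.3 with A5 and doxycycline, 1241.2 to 1406.1 with A5M and 1427.7 to 1754.1 without doxycycline. The part of all these markers in the results was not tested. In bulk RNA fewer cells of a type and less RNA per cell cannot be told apart.

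With the compounds at 6 h, 3 of the 7 genes tested were higher with A2 than with A1 and none was lower, against 33.4% of 8594 genes called and 19.1% higher. With A3 against A1 it was 3 higher and 1 lower, against 32.7% called, 18.5% higher and 14.2% lower. The 6 pairs of these 4 groups were compared, each with p adjusted over all genes. A2 and A3 were set against the same A1 arrays and the same U arrays.

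LGALS1 had 5009.7, 5439.3 and 4773.5 units with A2 and 5899.6, 5491.2 and 5315.1 with A3, against 2774.2, 2997.0 and 3122.8 with A1 and 3032.8, 2683.8 and 2587.6 with U. Every A2 and A3 array lay above every A1 and U array. The rise over A1 was 0.77 ± 0.11 with A2 (1.71-fold, limma adjusted p = 2.39e-05) and 0.91 ± 0.11 with A3 (1.88-fold, limma adjusted p = 4.40e-06). ANXA2 had 4186.2, 5162.5 and 4432.4 units with A2 and 5099.8, 4859.5 and 5273.4 with A3, against 2866.7, 3104.6 and 3414.0 with A1 and 3669.2, 3379.6 and 3296.3 with U. It too stood above both groups on every array, by 0.55 ± 0.11 with A2 (limma adjusted p = 0.000878) and 0.70 ± 0.11 with A3 (limma adjusted p = 0.000106) against A1.

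ANXA1 had 2843.4, 2480.6 and 2891.0 units with A2 and 3196.5, 2904.6 and 2879.0 with A3, against 2280.3, 1822.8 and 2057.6 with A1 and 2705.8, 2773.9 and 2887.9 with U. It was higher than with A1 by 0.42 ± 0.11 with A2 (limma adjusted p = 0.00685) and 0.55 ± 0.11 with A3 (limma adjusted p = 0.000923), but it overlapped with U (-0.03 ± 0.11 with A2 and 0.10 ± 0.11 with A3, neither called). The A1 arrays lay below the U arrays by 0.45, a difference of -0.45 ± 0.11 whose limma adjusted p was 0.164.

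ANXA5 had 88.6, 91.0 and 117.0 units with A2 and 80.2, 109.1 and 83.6 with A3, against 68.9, 75.9 and 63.6 with A1 and 78.3, 68.1 and 59.2 with U. All 6 values with A2 or A3 lay above the 6 others, but among these 4 differences only A2 against U passed (0.46 ± 0.17, limma adjusted p = 0.0478), and that call was made in 5 of 15 alternatives (limma adjusted p from 0.0321 to 0.202). It ended without U replicate 2 (0.46) or 3 (0.38) and without A2 replicate 1 (0.53), 2 (0.51) or 3 (0.35). Against A1, A2 gave 0.44 ± 0.17 (limma adjusted p = 0.0609) and A3 0.33 ± 0.17 (limma adjusted p = 0.162).

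ANXA11 was lower with A3, at 885.3, 1069.1 and 1023.7 units, against 1325.9, 1317.5 and 1489.4 with A1 and 1354.1, 1599.6 and 1260.9 with U, and A2 at 1386.8, 1242.6 and 830.2 overlapped with both. The difference was -0.47 ± 0.16 against A1 (limma adjusted p = 0.0288) and -0.49 ± 0.16 against U (limma adjusted p = 0.0216). The second probe set did not show it (-0.10 ± 0.13 and -0.07 ± 0.13, neither called). The call against A1 ended without A1 replicate 1 or 3 or A3 replicate 1 or 3 (-0.50 to -0.39, limma adjusted p from 0.0504 to 0.111), and that against U without U replicate 2 (-0.40) or A3 replicate 1 (-0.41). ANXA7 and LGALS3 did not pass in any of these comparisons: against A1, ANXA7 gave 0.00 ± 0.13 with A2 and -0.03 ± 0.13 with A3, and LGALS3 gave -0.11 ± 0.23 with A2 and -0.18 ± 0.23 with A3.

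Against U in place of A1, A2 raised ANXA2 (0.41 ± 0.11), ANXA5 and LGALS1 (0.87 ± 0.11), with 35.1% of all genes called and 19.7% higher. A3 raised ANXA2 (0.56 ± 0.11) and LGALS1 (1.01 ± 0.11) and lowered ANXA11, with 33.7% called, 18.8% higher and 14.9% lower. The ANXA2 call of A2 against U ended without A2 replicate 2 (0.32, limma adjusted p = 0.0501). Of the other ANXA2 probe sets, 1 was not called there (0.31 ± 0.12, limma adjusted p = 0.0598) and 1 was (0.41 ± 0.12, limma adjusted p = 0.0116). Between A1 and U limma called none of the 7 genes, against 0.0349% of all genes. At an unadjusted p below 0.05 it was 1 of 7, ANXA1, and the share of all genes at that level was not counted.

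A3 and A2 did not differ by limma in any of the 7 genes, against 0.151% of all genes called. At an unadjusted p below 0.05 it was 0 of 7, and the share of all genes at that level was not counted. The 95% interval of A3 minus A2 was -0.09 to 0.36 for LGALS1, -0.08 to 0.38 for ANXA2 and -0.10 to 0.36 for ANXA1. For ANXA5 it was -0.48 to 0.26 and for ANXA11 -0.52 to 0.15, so differences within these bounds could not be seen with 3 arrays a group. The ACTB ratio was 1.05 ± 0.03 with A2 and 1.06 ± 0.15 with A3, against 1.33 ± 0.07 with A1 and 1.18 ± 0.12 with U. With this ratio as a covariate 1 gene, LGALS1, stayed called for A2 against A1 (ANXA1 0.48, limma adjusted p = 0.0651, and ANXA2 0.51, limma adjusted p = 0.0516), and 3 for A3 against A1. The summed myeloid markers lay between 270.0 and 405.8 in all 4 groups. The summed signal of the 8 ALCL markers, ALK among them, was 7135.6 to 8303.1 with A2 and 7286.6 to 7975.0 with A3. It was 14497.8 to 16104.7 with A1 and 14672.4 to 16004.1 with U. The T-cell sum was 1048.6 to 1188.7 with A2 and 1316.6 to 1408.4 with A3, against 1287.1 to 1587.0 with A1 and 1321.6 to 1647.3 with U. The part of these markers in the compound results was not tested.

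**Figure D4:**
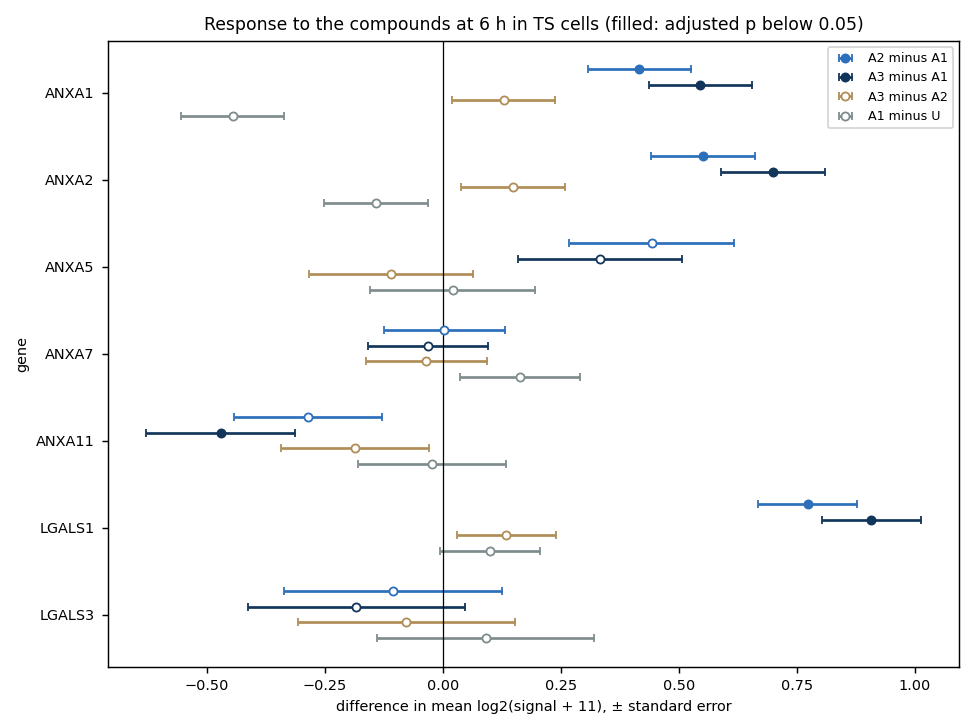
Difference in mean log2(signal + 11) (horizontal, ± standard error) of the 7 genes tested after 6 h in TS cells, for A2 and A3 against A1, A3 against A2 and A1 against U. Filled points have a limma adjusted p below 0.05. LGALS1 lies at 0.77 and 0.91 against A1, and no point of A3 minus A2 is filled.

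Set side by side, LGALS1 and ANXA2 were the genes of the 7 tested in both fits called higher in all 3 A5 settings, against A5M, and with both A2 and A3 against both A1 and U. That is on the probe sets used, and 1 of the other ANXA2 probe sets was not called with A2 against U. In each single comparison 13.9% to 23.3% of all genes were called higher. The share of all genes called higher in every 1 of them was not counted, and several of these comparisons share arrays. ANXA5 was called in every A5 comparison and in 1 of 4 with a compound. The times differ (72 or 84 h and 6 h), so these sizes are not compared. Over the 11 group means, LGALS1 and ANXA2 had a Pearson correlation of 0.926, ANXA5 and ANXA4 of 0.865, and LGALS3 and ANXA2 of -0.04, as a description of points that share the same arrays and treatments.

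On the probe set used, a group with induced A5 had the highest mean for each of the 7 genes tested in both fits. For ANXA1, ANXA5, ANXA11 and LGALS3 it was Su-DHL1 cells, and for ANXA7 TS cells at 72 h. ANXA4 and ANXA6 are left out, as they passed the filter through groups where they were high. The share of all genes with an induced A5 group on top was not counted. Induced Su-DHL1 cells overlapped with uninduced ones for ANXA1 and with U for ANXA11. For ANXA7 the group on top overlapped with induced Su-DHL1 cells. On the other ANXA11 probe set TS cells with A2 had the highest mean, at 195.6 units, and overlapped with A1. LGALS1 was highest at 10181 ± 1088 units in TS cells with induced A5 at 84 h and lowest at 2768 ± 234 with U. ANXA2 was highest at 6084 ± 148 in the same cells and lowest at 3036 ± 249.4 in uninduced Su-DHL1 cells (SD, n = 3 each). For LGALS1 the neighbours induced TS at 72 h and induced Su-DHL1 cells overlapped, as did A3 and A2, and as did the last 5 groups each with the next. ANXA5 was highest in induced Su-DHL1 cells, followed by TS cells at 84 h, TS cells at 72 h and uninduced Su-DHL1 cells, and these 4 groups did not overlap with each other, while the other 7 each overlapped with the next. LGALS3 overlapped from each group to the next throughout, with induced Su-DHL1 cells and A5M in TS cells at the top.

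By the highest Pearson correlation over the 11 group means among 9209 genes, the nearest to LGALS1 were LSS (0.985), BEX3 (0.977) and DNASE1L1 (0.975). The nearest to ANXA2 were HCFC1R1 (0.976), ATOSB (0.968) and PLD3 (0.967), to ANXA5 FAS (0.974), ALDH9A1 (0.971) and TRAPPC11 (0.965), and to ANXA1 PSMB5, DPP3 and MPV17 (0.958 to 0.964). For ANXA4 they were TCN2 (0.988), TLE5 and PPP2CB, and for ANXA6 CUEDC1 (0.966), MYO7A and GSN. The best correlations of ANXA7 (INHBE, CTH, TTLL1), ANXA11 (TRAPPC12, SMAP1, DIAPH1) and LGALS3 (CLCN5, NOL3, PDE3A) were 0.959, 0.923 and 0.924.

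The promoters of ANXA1, ANXA2 and ANXA5, which were all called higher with A5 in TS cells, are shown from 250 bases before to 20 bases after the annotated start, as an example of how unlike they are in sequence. They come from RefSeq (GRCh38.p14), whose promoter table held 12 promoters of 8 of the 9 genes, and lie on chr9:73151615-73151884 (plus strand, ANXA1), chr15:60397967-60398236 (minus strand, ANXA2) and chr4:121696961-121697230 (minus strand, ANXA5). Capitals mark matches on either strand to motifs of STAT factors (TTCNNNGAA), of the AP-1 family of transcription factors (TGANTCA), of FOXO forkhead transcription factors (TGTTTAC), of the zinc finger factor SP1 (GGGCGG), and to the TATA box of core promoters (TATAAA).
ANXA1: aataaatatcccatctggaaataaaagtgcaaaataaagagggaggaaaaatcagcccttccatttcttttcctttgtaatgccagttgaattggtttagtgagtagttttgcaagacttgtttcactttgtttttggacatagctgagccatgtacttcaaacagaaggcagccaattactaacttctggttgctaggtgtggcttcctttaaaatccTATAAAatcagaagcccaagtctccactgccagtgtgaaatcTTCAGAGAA
ANXA2: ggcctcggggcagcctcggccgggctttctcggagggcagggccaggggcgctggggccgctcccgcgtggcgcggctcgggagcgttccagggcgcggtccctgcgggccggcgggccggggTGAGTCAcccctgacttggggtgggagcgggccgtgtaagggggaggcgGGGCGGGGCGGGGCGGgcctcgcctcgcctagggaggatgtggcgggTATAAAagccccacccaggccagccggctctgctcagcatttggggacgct
ANXA5: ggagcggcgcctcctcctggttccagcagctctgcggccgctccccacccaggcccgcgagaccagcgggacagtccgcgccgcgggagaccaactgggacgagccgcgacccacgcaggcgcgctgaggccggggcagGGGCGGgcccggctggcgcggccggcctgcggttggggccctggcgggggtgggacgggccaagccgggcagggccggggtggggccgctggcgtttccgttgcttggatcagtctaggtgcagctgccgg
ANXA1 had 37.7% GC over its 300-base promoter, a TATAAA at position -31 and the STAT-type TTCAGAGAA at +12, which was the only match to TTCNNNGAA among the 12 promoters. ANXA2 had 76.0% GC, the AP-1-type TGAGTCA at -127, 3 overlapping GGGCGG at -78, -73 and -68, and TATAAA at -31. ANXA5 had 76.3% GC and a single GGGCGG at -111. Of 35116 RefSeq promoters 7.66% held the STAT motif, 7.71% the AP-1 motif, 3.42% the FOXO motif, 44.95% the SP1 motif and 11.53% the TATA box, and the median GC content was 58.7%. These matches describe the letters in these windows, and binding was not measured.

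Among protein partners of annexins, S100A4, S100A6 and AHNAK were higher with A5 in all 3 settings and against A5M. S100A4 and S100A6 bind annexin tails when calcium is present, and AHNAK is a giant scaffold of the S100A10 and annexin A2 complex. Of 11 partners listed from general knowledge, 10 were tested. In TS cells 5 were higher and 1 lower at 84 h (median 0.30, and 0.06 over all genes), where 21.8% of all genes were higher, and 5 were higher and none lower at 72 h, where 18.9% were. In Su-DHL1 cells 5 were higher and none lower, beside 13.9% of all genes higher, and against A5M 7 were higher and 1 lower, beside 23.3% higher. S100A6, a partner of ANXA2 and ANXA11, had 5103.4, 6696.8 and 6688.2 units in TS cells with A5 and doxycycline at 84 h, against 625.4, 600.4 and 706.1 with A5M and 824.1, 821.4 and 823.4 without doxycycline. It rose by 2.88 ± 0.13 at 84 h, 2.65 ± 0.13 at 72 h and 2.55 ± 0.13 in Su-DHL1 cells (highest limma adjusted p among the 3 = 6.06e-13).

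AHNAK had 1078.7, 1156.6 and 1168.8 units with A5 and doxycycline at 84 h, against 177.6, 118.5 and 137.6 with A5M and 183.5, 150.9 and 181.0 without doxycycline. It rose by 2.65 ± 0.12, 2.37 ± 0.12 and 2.53 ± 0.12 for TS at 84 h, TS at 72 h and Su-DHL1, and with A2 and A3 against A1 by 1.69 ± 0.16 and 1.61 ± 0.16. S100A4 rose as well, by 1.81 ± 0.25 with A2 and 2.33 ± 0.25 with A3 against A1. It reached the 40th percentile on only some of the 33 arrays, so the sizes of its differences may rest on dim signals. S100A10, which binds ANXA2 at the membrane, had 5903.7, 6782.4 and 6235.5 units with A5 and doxycycline at 84 h, against 2601.7, 3029.2 and 3283.7 with A5M and 5657.0, 5304.1 and 5701.2 without doxycycline. It therefore differed from A5M (1.09 ± 0.10, limma adjusted p = 3.07e-09), while A5M lay below uninduced A5 (-0.91 ± 0.10, limma adjusted p = 1.64e-06). At 72 h in TS cells it rose by 0.37 ± 0.10 (limma adjusted p = 0.00461), while it did not pass in TS cells at 84 h against uninduced cells (0.18 ± 0.10) or in Su-DHL1 cells (0.04 ± 0.10).

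Of 6 other annexins, ANXA3 and ANXA9 were tested in the hairpin fit. ANXA3 was lower with A5: it had 382.8, 418.2 and 417.9 units in TS cells with A5 and doxycycline at 84 h, against 773.3, 739.1 and 688.5 with A5M and 806.4, 674.6 and 577.3 without doxycycline. It fell by 0.73 ± 0.10 at 84 h, by 0.27 ± 0.10 at 72 h and by 0.34 ± 0.10 in Su-DHL1 cells. With A2 it had 191.0, 212.9 and 202.2 units and with A3 220.4, 200.4 and 232.9, against 552.9, 376.9 and 592.8 with A1 (A2 -1.26 ± 0.15, limma adjusted p = 4.72e-06, and A3 -1.16 ± 0.15, limma adjusted p = 1.24e-05). ANXA9 was higher with A5 in TS cells, by 1.32 ± 0.37 at 84 h and 1.59 ± 0.37 at 72 h. It did not reach the 40th percentile on all 33 arrays, so these differences may rest on dim signals. FPR1, a formyl peptide receptor through which annexin A1 signals, rose by 1.98 ± 0.24, 1.66 ± 0.24 and 1.34 ± 0.24 for TS at 84 h, TS at 72 h and Su-DHL1. PLA2G4A, the cytosolic phospholipase A2 that annexin A1 restrains, fell by 0.52 ± 0.14, 0.44 ± 0.14 and 0.79 ± 0.14 in the same order but did not pass against A5M (-0.18 ± 0.14, limma adjusted p = 0.309). FPR1 and PLA2G4A were the only genes of 4 tested on that list of 6 to be called in these comparisons. Of all genes 40.6% were called in TS cells at 84 h, 34.2% at 72 h and 24.6% in Su-DHL1 cells. FPR1 reached the 40th percentile on only some of the 33 arrays, so its rises may rest on dim signals.

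In the plasminogen system, for which annexin A2 is a surface docking site, 3 of 6 listed genes were tested. PLAUR, the urokinase receptor, had 1768.1, 1596.1 and 1470.8 units in TS cells with A5 and doxycycline at 84 h, against 958.7, 985.2 and 1027.1 with A5M and 1073.3, 1098.8 and 1104.8 without doxycycline, and it rose by 0.55 ± 0.08 (limma adjusted p = 3.42e-06). With A2 it had 132.4, 127.8 and 126.4 units and with A3 121.1, 124.8 and 141.0, against 826.7, 922.3 and 741.1 with A1, which gave -2.58 ± 0.13 for each (limma adjusted p = 2.72e-10 for A2 and 2.70e-10 for A3). PLAT, tissue plasminogen activator, rose with A5 in TS cells by 0.64 ± 0.23 at 84 h and 0.81 ± 0.23 at 72 h, and did not pass against A5M (0.55 ± 0.23, limma adjusted p = 0.0552).

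Of 15 glycoprotein ligands of galectins on T cells, 12 were tested. With A5 in TS cells 6 were higher and 2 lower at 84 h, beside 40.6% of all genes called, and 5 higher and 1 lower at 72 h, beside 34.2%. In Su-DHL1 cells 4 were higher and 1 lower, beside 24.6% of all genes called, and against A5M 5 were higher and 1 lower, beside 43.3%. LAMP2, a lysosomal membrane glycoprotein, had 302.3, 293.1 and 318.9 units in TS cells with A5 and doxycycline at 84 h, against 80.5, 94.5 and 95.5 with A5M and 94.3, 87.4 and 98.3 without doxycycline (1.60 ± 0.11 against uninduced cells, limma adjusted p = 1.98e-11). ITGB1, the integrin beta-1 chain, rose by 1.27 ± 0.15, LAMP1 by 0.90 ± 0.11 and PTPRC, or CD45, by 0.67 ± 0.16. TFRC, the transferrin receptor, fell by 0.55 ± 0.12 in TS cells at 84 h and by 1.05 ± 0.14 with A2 against A1. With A2 against A1 3 of the 12 were higher and 1 lower, and with A3 against A1 1 was higher and 1 lower, beside 33.4% and 32.7% of all genes called.

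Of 11 glycan enzymes that build or mask galectin ligands, 10 were tested, and MGAT2, an N-glycan branching enzyme, was the only one higher in all 3 A5 settings (0.86 ± 0.14, 0.85 ± 0.14 and 0.43 ± 0.14 for TS at 84 h, TS at 72 h and Su-DHL1). In TS cells at 84 h 1 was higher and 1 lower, and MAN2A1, a Golgi mannosidase, was the lower one (-0.75 ± 0.17), beside 40.6% of all genes called. With each of A2 and A3 against A1 2 were higher and 2 lower, beside 33.4% of all genes called with A2 and 32.7% with A3: MGAT2 (1.02 ± 0.17 with A2) and MGAT4A rose, and MGAT1 (-0.48 ± 0.13 with A2) and MGAT5 fell. On a list of 10 other galectin genes that includes LGALS3BP, 6 were tested with A5 and 5 with the compounds. LGALS8, a tandem-repeat galectin, fell by 0.43 ± 0.11 in TS cells at 84 h, 0.50 ± 0.11 at 72 h and 1.05 ± 0.11 in Su-DHL1 cells, and A5M also lay below uninduced cells (-0.46 ± 0.11, limma adjusted p = 0.00885), so that A5 did not pass against A5M (0.03 ± 0.11, limma adjusted p = 0.872). LGALS9 was higher in TS cells at 84 h (1.45 ± 0.47), with 97.8, 58.3 and 41.8 units with doxycycline, against 32.7, 8.6 and 16.9 with A5M and 30.7, 8.2 and 13.6 without doxycycline. The LGALS9 values it was set against all lay below 33.3, the lowest 40th percentile of any array, so the difference is given only as a description. LGALS3BP, a secreted glycoprotein bound by galectins, rose there by 0.53 ± 0.17.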

How the data were processed

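Total RNA of 33 samples was hybridized to Affymetrix HG-U133A arrays. The deposited values are linear intensities per probe set that the authors obtained with MAS5, per the submitters' processing notes (version and settings: not given in the sources used here). Trimmed by 2% at each end, the mean was 200.06 to 200.08 on every array, so no further normalization was applied, and a change in total RNA content cannot be seen. Samples were grouped by their titles. The 68 control probe sets were left out. Of the rest, 19065 had 1 gene symbol in the platform annotation, 1043 had several (among them 1 that names ANXA2 beside another gene, not used here) and 2107 had none.

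Signals were taken to log2(signal + 11), 11 being their 20th percentile (10.8) rounded. A probe set was kept if it reached the 40th percentile of its array on 3 or more arrays of a fit, and a gene was read by its probe set of highest mean. Differences came from limma 3.58.1 under R 4.3.3, by lmFit and eBayes with trend, in 2 fits: 21 hairpin arrays (9101 genes, 14 residual degrees of freedom) and 12 compound arrays (8594 genes, 8 residual). P-values are two-sided with Benjamini-Hochberg adjustment over all genes. The fit was tested on simulated data with known changes. Tables used pandas 2.3.3 and figures matplotlib 3.10.9.

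The members, the related lists, the tests and the rule for naming genes were chosen with earlier results of these data known. All 9 members are named in every comparison, and from each related list up to 4 called genes of largest change. Arrays number 3 a group, which limits the precision. Alternatives were other pseudocounts, filters, quantile normalization, the median of probe sets, no trend, a replicate block, the ACTB ratio as a covariate, only the groups compared, and leaving out each array; fitting each probe set was added after seeing the data. Replicate numbers were not used to pair samples in the main fits. Deviations of same-numbered arrays correlated at -0.21 to 0.13, and in no comparison were all pairs above 0.1. Such low correlations cannot show whether same-numbered samples were paired.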

Additional observations from a re-analysis of the deposited data

Results flagged for a closer look

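Among the related genes named, 3 responses to A5 differed by limma's test of the difference itself. PLAUR rose in TS cells at 72 h (0.72 ± 0.08) and fell in Su-DHL1 cells (-0.23 ± 0.08), a difference between Su-DHL1 and TS cells of -0.95 ± 0.11 (limma adjusted p = 9.60e-06). The fall of LGALS8 was deeper in Su-DHL1 than in TS cells by -0.54 ± 0.15 (limma adjusted p = 0.0489). The rise of S100A4 in TS cells was greater at 84 h (5.999 ± 0.22) than at 72 h (3.999 ± 0.22), by 1.9997 ± 0.31 (limma adjusted p = 0.000515). S100A4 reached the 40th percentile on only some of the 33 arrays, so these sizes may rest on dim signals. A5M, measured only at 84 h, also stood above uninduced A5 for S100A4 (1.05 ± 0.22, limma adjusted p = 0.00387), and A5 exceeded A5M by 4.94 ± 0.22. No such difference was called for the 9 annexin and galectin genes.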

How the results depend on the processing

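No difference of a gene turned its direction past a threshold in any alternative tried. Counts here are over all genes of the 9 that were tested, ANXA4 and ANXA6 included (8 for A5 in TS cells at 84 h, 7 at 72 h, 5 in Su-DHL1 cells, 7 against A5M and 4 for uninduced Su-DHL1 against TS cells). They serve only to show how calls move with the settings, and the ANXA6 calls among them are not read as a test. Over the 7 other genes, 6, 5, 4 and 5 were higher for A5 in the same order, beside 21.8%, 18.9%, 13.9% and 23.3% of all genes. For uninduced Su-DHL1 against TS cells 2 were higher and 1 lower, beside 10.8% and 10.4%. The counts over all members tested stayed within 1.5 times the reported count under other pseudocounts, filters, no trend, the median of probe sets and only the groups compared. With the ACTB ratio as a covariate the count was 5 for A5 against uninduced TS cells at 84 h, 3 at 72 h, 4 for A5 against A5M, 2 for uninduced Su-DHL1 against TS cells and 1 for A2 against A1; the cause was not tested, and the covariate takes a degree of freedom. Quantile normalization gave 1 call, LGALS1, for A5M against uninduced A5. Leaving out 1 array gave 3 to 6 calls for A5 in Su-DHL1 cells (3 without induced replicate 3), 2 to 4 for uninduced Su-DHL1 against TS cells (2 without TS replicate 1), 1 to 3 for A2 against U (1 without A2 replicate 2) and 0 to 1 for A5M against uninduced A5 (1 without A5M replicate 3).

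The replicate number, whose meaning the titles do not give, was also used as a block. ANXA11 was then called in Su-DHL1 cells (0.51, limma adjusted p = 0.00464), and ANXA5 was not for A2 against U (0.46, limma adjusted p = 0.0630). The other 112 of 114 gene results kept their call. Over 114 gene results the call changed in 1 with a pseudocount of 1, in 0 with 50, in 3 without a filter, in 5 with quantile normalization, in 7 with the median of probe sets, in 4 without the trend and in 16 with the ACTB ratio. The dim signals of ANXA4, ANXA6 and LGALS3 limit what can be said of them, and ANXA4 and ANXA6 were not tested with the compounds.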
